A study of Mus musculus with 16 samples.

Results

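The unfolded protein response and chaperone genes of the endoplasmic reticulum (ER) were described in the hearts of 16 mice. The set held 33 genes named by function (ER chaperones, protein disulfide isomerases, components of ER-associated degradation, and factors and targets of the ATF6, IRE1 and PERK branches), and all 33 were among the 30153 genes of the table. Of these, 32 reached a TPM of 1 (TPM, the share of a library's transcripts scaled to a common total) in at least 3 libraries and entered the tests with 11415 genes in all. Derl3 did not: its highest level was 0.000942 scaled TPM.

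Poly(A)-selected RNA of heart tissue was sequenced, 1 library per animal, all on the C57/BL6 strain. A control group of 3 adult animals (C57) stood beside 4 aged Hap-I animals, 5 aged Hap-I animals fed a western diet, and 4 younger adults with Hap-I that were also fed it. Hap-I denotes a transgene for the angiotensin II receptor type 1 of humans in its haplotype I, carried by the 3 groups other than C57. The series design lists the younger Hap-I group with no diet, whereas its sample labels state western diet. The labels were followed, and the diet of that group is uncertain. The 3 C57 animals carry no transgene, are adult and have no stated diet, so by the labels the receptor differs together with age in aged Hap-I, with diet in adult Hap-I on western diet, and with both in aged Hap-I on western diet, and these cannot be told apart. The sources used here give no age in months, sex, transgene promoter or line.

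Secreted and membrane proteins fold in the ER, where BiP (Hspa5) and its partners hold unfolded chains. When unfolded proteins accumulate, the sensors IRE1, PERK and ATF6 signal to the nucleus: IRE1 splices the Xbp1 transcript, PERK favours translation of Atf4, and ATF6 is cut from the membrane to act as a transcription factor. The targets include chaperones, folding enzymes and the machinery that returns misfolded proteins to the cytosol for degradation. In the heart, ATF6 and Xbp1 are known for protecting cardiomyocytes under pressure and ischemic load, and Ddit3 (CHOP) for its part in cell death when the stress persists.

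The DNA that these factors read is shown first, because several chaperone genes whose levels are described below carry it beside their start sites. In the RefSeq promoter table (GRCm38.p6, 250 bases before to 50 bases after the start), 29 of the 33 members had a window. Derl1, Hyou1, Atf6 and Manf had none. The ER stress response element, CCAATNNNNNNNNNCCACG on either strand, stood in the windows of 9 of these 29 members (Calr, Canx, Creld2, Derl3, Dnajc3, Hsp90b1, Hspa5, Pdia6 and Syvn1), against 0.137% of all 27025 genes of the table and 0.119% of its 32851 windows. Its second form, ATTGGNCCACG, was found for Dnajb11 and Herpud1, against 0.0365% of windows. The composite element read by ATF4, TGATGNAA, was found for Asns, Chac1, Herpud1 and Trib3, against 3.97% of windows. The core TGACGTGG was found for no member and in 0.676% of windows. A match is a description of these letters, not of binding. In the stretches below, read 5′ to 3′ on the gene's strand, capitals mark the elements: the ER stress response element in the first 4 genes, 2 copies of it in Hsp90b1, the ATF4 element and then the second form in Herpud1, and the ATF4 element in Chac1.
Hspa5 (chr2:34772015-34772053, plus strand): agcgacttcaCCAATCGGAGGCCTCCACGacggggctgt
Calr (chr8:84847065-84847103, minus strand): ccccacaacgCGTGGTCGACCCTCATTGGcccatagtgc
Creld2 (chr15:88819510-88819548, plus strand): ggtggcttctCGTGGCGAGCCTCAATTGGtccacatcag
Hsp90b1 (chr10:86705523-86705666, minus strand): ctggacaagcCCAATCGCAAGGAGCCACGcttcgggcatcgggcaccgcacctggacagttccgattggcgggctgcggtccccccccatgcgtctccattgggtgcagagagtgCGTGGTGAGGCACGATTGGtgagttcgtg
Herpud1 (chr8:94386307-94386397, plus strand): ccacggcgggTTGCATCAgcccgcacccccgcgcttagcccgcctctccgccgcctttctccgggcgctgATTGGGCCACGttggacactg
Chac1 (chr2:119351039-119351066, plus strand): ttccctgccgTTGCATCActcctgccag
The Hspa5 copy lies 65 to 47 bases before the RefSeq start, and that of Calr 162 to 144 bases before it and on the opposite strand.

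Values below are TPM divided by a size factor per library (scaled TPM). TPM keep no sequencing depth, and these size factors do not measure it. Size factors ran from 0.678 to 1.231, and mitochondrially encoded genes took 31.1% to 46.1% of the TPM in the table. Y-linked transcripts were near 0 in 5 of the 9 western-diet libraries and present in the other 11 of the 16. Ventricular markers were high in every library, at 51770 to 71390 scaled TPM summed over 14 genes. Markers of other cells differed between the groups. All 9 atrial markers reached 1 TPM, and their sum ran from 252 to 6854 in C57 hearts, 114 to 5210 in aged Hap-I, 107 to 217 in aged Hap-I on western diet and 54.1 to 1207 in the adult Hap-I group. Myl7 stood at 1843 and 885 in C57 replicates 1 and 3 and at 26.8 in replicate 2, while Sln, Mybphl and Bmp10 were at 0 in at least 1 library. All 12 fibroblast markers reached 1 TPM, and their sum was above every Hap-I library in the C57 hearts, at 943 to 1219 against 667 to 905, 381 to 809 and 427 to 801 in the groups in the same order. The 10 endothelial markers summed to 445 to 570.5 in C57 hearts and to 340 to 375, 330 to 514 and 371 to 402 in the Hap-I groups. Of the 8 white adipocyte markers 4 passed, with sums of 654 to 845, 406 to 492, 346 to 637 and 471 to 814, and Plin1 and Lep at or near 0. These sums were mostly Fabp4 (group means 736, 437, 475 and 601), with Adipoq at 1.68, 1.33, 0.206 and 0.45. Gsn was the highest fibroblast marker (576, 386, 255 and 259). Lum exceeded C57 on western diet (18.04, 15.5, 19.4 and 22.8). Ly6c1 was the highest endothelial marker (223, 108, 157 and 140). Egfl7 exceeded C57 on western diet (58.6, 49.5, 77.9 and 88.5), and Cdh5 and Kdr did in aged Hap-I. In whole tissue, fewer cells of a type and less RNA per cell cannot be told apart, and the part of fibroblast, endothelial and adipocyte content in the results below was not tested.

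Several ER chaperones and folding enzymes were lower in Hap-I than in C57 hearts, and no member passed the test as higher. In aged Hap-I hearts on western diet 13 of 32 members fell below C57, against 9.57% of all genes called lower, and 0 rose, against 12.3% called higher. Their median log2 fold change was -0.45, against -0.001 over all genes. The 13 were Dnajb11, Creld2, Calr, Herpud1, Dnajb9, P4hb, Hspa5, Pdia3, Hsp90b1, Manf, Pdia4, Pdia5 and Sdf2l1. In aged Hap-I hearts without the diet 8 fell, against 4.06% of genes, and 0 rose, against 7.18%. These were Creld2, Dnajb11, Derl2, Chac1, Herpud1, Xbp1, Manf and Sdf2l1, and the median over members was -0.29. In adult Hap-I hearts on western diet 6 fell, against 1.5% of genes, and 0 rose, against 1.95%. These were Creld2, Dnajb11, Herpud1, Manf, Calr and Ddit3, with a median of -0.38. The groups did not overlap, in either direction, for 13 members (23.4% of all genes), 17 members (34.1%) and 16 members (18%) in these comparisons. The 16 include Sesn2, which was higher in every adult Hap-I animal (0.993 to 1.265 scaled TPM) than in C57 (0.678 to 0.966) but did not pass. Sesn2 lay near the filter: it reached 1 TPM in 9 libraries, none of them C57. Before scaling its TPM overlapped, at 0.839 to 1.162 in adult Hap-I and 0.716 to 0.921 in C57. All 3 comparisons share the same 3 C57 libraries, so they do not support one another. Calls are limma adjusted p under 0.05 over 11415 genes, and log2 fold changes are differences of log2(scaled TPM + 1) ± SE, which understate the changes of low genes. Gene positions are on GRCm38.

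**Figure D1:**
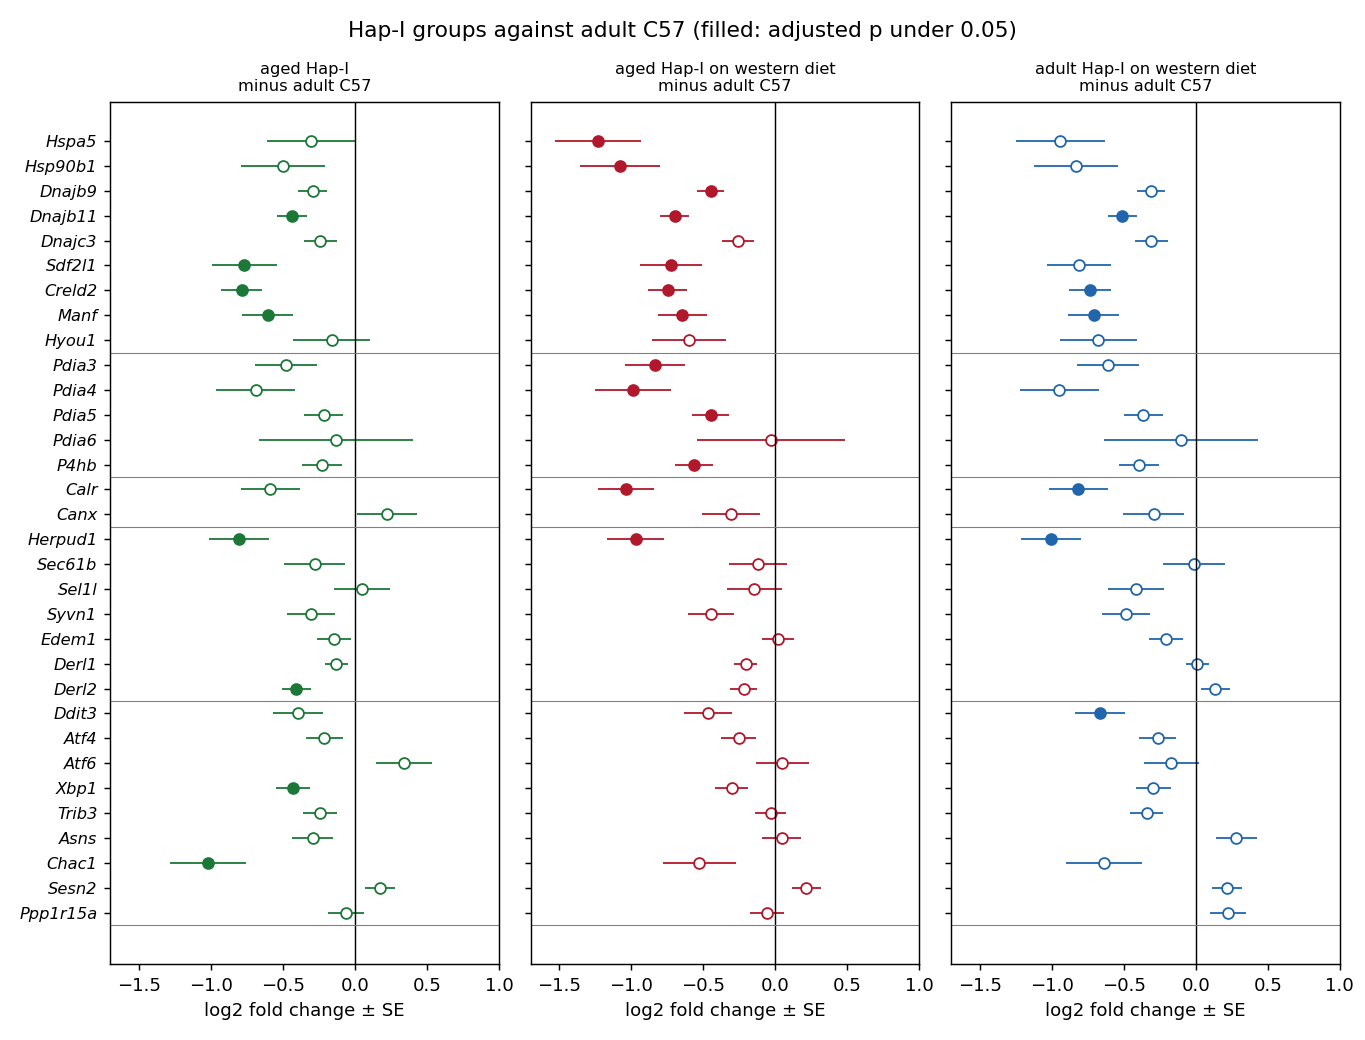
Log2 fold change (x axis, ± SE) of the 32 tested members (rows, grouped by role) in each Hap-I group against adult C57, with filled points for adjusted p under 0.05. Filled points are all left of 0: 8 members in aged Hap-I, 13 in aged Hap-I on western diet and 6 in adult Hap-I on western diet.

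These counts leaned on the C57 animals and on which groups shared the fit. C57 replicates 1 and 3, the 2 with high atrial markers, were also the higher C57 animals for most members: 24 of the 32 members were lowest in C57 replicate 2. Without C57 replicate 1 the counts became 10 (aged Hap-I on western diet), 2 (aged Hap-I) and 0 (adult Hap-I), and without replicate 3 they became 7, 1 and 0. Of all genes 4.79%, 0.987% and 0.282% were called lower without replicate 1, and 4.68%, 1.03% and 0.414% without replicate 3. Leaving out 1 aged Hap-I animal brought the aged count to between 2 and 5, and leaving out aged replicate 1, 2 or 3 or adult replicate 2 or 3 brought the adult Hap-I count to 3. The shares of all genes called lower were then 1.53% to 3.67% and 0.701% to 1.3%. With the atrial marker level as a covariate the 3 counts were 5, 5 and 0, with a covariate for Y-linked transcripts 14, 8 and 2, and with no scaling of TPM 2, 0 and 2. The shares of all genes called lower were 2.27%, 2.21% and 0.359%, then 4.89%, 3.71% and 0.517%, and then 2.91%, 0.184% and 0.823%. When only the 2 groups of each comparison were fitted the counts were 9, 14 and 0, against 4.95%, 10% and 0.289% of all genes lower. Aged Hap-I then had the most calls, among the members and among all genes alike. Under all of these settings no member was called higher than C57.

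The largest block of calls lay in the HSP70 and HSP90 machinery, of which 7 of 9 members fell in aged Hap-I hearts on western diet, 4 in aged Hap-I and 3 in adult Hap-I on western diet. All 9 had negative fold changes in each comparison. Hspa5 (chr2:34771970-34777547), which encodes BiP, the HSP70 chaperone of the ER lumen, had levels of 314, 285 and 325 scaled TPM in C57 animals. It stood at 237, 235, 229.9 and 300.0 in aged Hap-I, at 220.0, 107, 129.9, 71.8 and 171 in aged Hap-I on western diet and at 183, 101, 147 and 240.0 in adult Hap-I on western diet. Every western-diet value lay below every C57 value, and only replicate 4 of the aged Hap-I group reached the C57 range. The log2 fold change against C57 was -1.23 ± 0.30 (adjusted p = 0.00935) in aged Hap-I on western diet, and -0.94 ± 0.31 (adjusted p = 0.0982) and -0.30 ± 0.31 (adjusted p = 0.556) in the adult and aged groups. The 1 call held without any 1 of the 16 libraries. It was lost with no scaling, with quantile normalization and with the atrial covariate (limma adjusted p of up to 0.0906).

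Hsp90b1, which encodes GRP94, the ER form of HSP90, was at 163, 156 and 183 in C57 hearts. In aged Hap-I on western diet it was at 119.6, 65.7, 88.8, 42.2 and 100.5, all below C57, a change of -1.08 ± 0.28 (adjusted p = 0.0136). In aged Hap-I it was at 116, 118, 108 and 132 and in adult Hap-I at 119, 64.3, 75.4 and 132, also below every C57 animal, though neither difference passed (adjusted p = 0.283 and 0.119). Without C57 replicate 3 the call in aged Hap-I on western diet was lost (adjusted p = 0.0599). Of the 31-base words of the Hsp90b1 transcripts 12.3% are shared with other genes, led by 1810014B01Rik.

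Dnajb11 (chr16:22857845-22879634), encoding ERdj3, a co-chaperone that hands unfolded chains to BiP, had the smallest adjusted p of any member. Its levels were 29.1, 26.04 and 29.8 in C57, 22.5, 19.96, 18.8 and 21.4 in aged Hap-I, 19.4, 16, 16.8, 15.4 and 17.8 in aged Hap-I on western diet and 21.8, 17.1, 18.7 and 21.1 in adult Hap-I. Every Hap-I animal lay below every C57 animal. The changes were -0.44 ± 0.10, -0.70 ± 0.10 and -0.51 ± 0.10 in that order (adjusted p = 0.0157, 0.000426 and 0.0155). The calls in aged and in adult Hap-I were lost without C57 replicate 1 or 3. Dnajb9, the co-chaperone ERdj4, was at 12.6, 14.3 and 12.3 in C57 and at 9.75, 10.6, 9.05, 8.75 and 8.45 in aged Hap-I on western diet, a change of -0.45 ± 0.09 with no overlap (adjusted p = 0.00444). Of its 31-base words 10.8% are shared with other genes, led by Gm6568.

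Creld2 (chr15:88819646-88826683), a secreted ER-resident protein induced by ER stress, was at 14.3, 11.5 and 17.6 in C57 and at 7.99, 7.32, 7.29 and 8.87 in aged Hap-I. In aged Hap-I on western diet it was at 8.84, 9.19, 8.09, 6.11 and 8.58 and in adult Hap-I at 8.83, 6.95, 7.9 and 9.19. No Hap-I animal reached the lowest C57 animal, and the Hap-I groups lay on top of one another. The changes were -0.79 ± 0.14, -0.75 ± 0.14 and -0.73 ± 0.14 (adjusted p = 0.00525, 0.00213 and 0.0134), of which the last was lost without C57 replicate 1 or 3. Manf (chr9:106838312-106891979), a secreted ER stress factor that binds BiP, was at 57.8, 39.9 and 60.04 in C57 and at 32.7, 31.6, 31.1 and 39.8 in aged Hap-I. It was at 31.4, 42.5, 24.7, 31.2 and 36.4 in aged Hap-I on western diet and at 32.97, 37.3, 30.1 and 25.9 in adult Hap-I. C57 replicate 2, at 39.9, stood below the other 2 C57 animals, and replicate 2 of aged Hap-I on western diet exceeded it; the other groups did not reach C57. The changes were -0.61 ± 0.18, -0.65 ± 0.17 and -0.71 ± 0.18 (adjusted p = 0.0385, 0.0146 and 0.04), and each call was lost without C57 replicate 1 or replicate 3. The call in aged Hap-I was lost without any 1 of 7 libraries and after each library's trend with transcript length was removed (adjusted p = 0.0831). That in adult Hap-I was lost without any 1 of 8 libraries and with the Y-linked covariate (adjusted p = 0.0801). Of the words of Manf 7.25% are shared with other genes, led by 4930524O07Rik.

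Sdf2l1, a partner of the ERdj3 and BiP complex, had the same low C57 animal, at 8.39, 4.13 and 9.82 scaled TPM. The Hap-I animals ran from 3.05 to 6.04, so replicate 2 of C57 lay within their range. It was called in aged Hap-I (-0.77 ± 0.22, adjusted p = 0.0386) and in aged Hap-I on western diet (-0.72 ± 0.21, adjusted p = 0.0259), and both calls were lost without C57 replicate 1 or replicate 3. The call in aged Hap-I was lost without any 1 of 6 libraries and with the length trend removed (adjusted p = 0.0652). That in aged Hap-I on western diet was lost without any 1 of 3 libraries. The remaining members of the machinery, Hyou1 and Dnajc3, passed in no comparison.

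**Figure D2:**
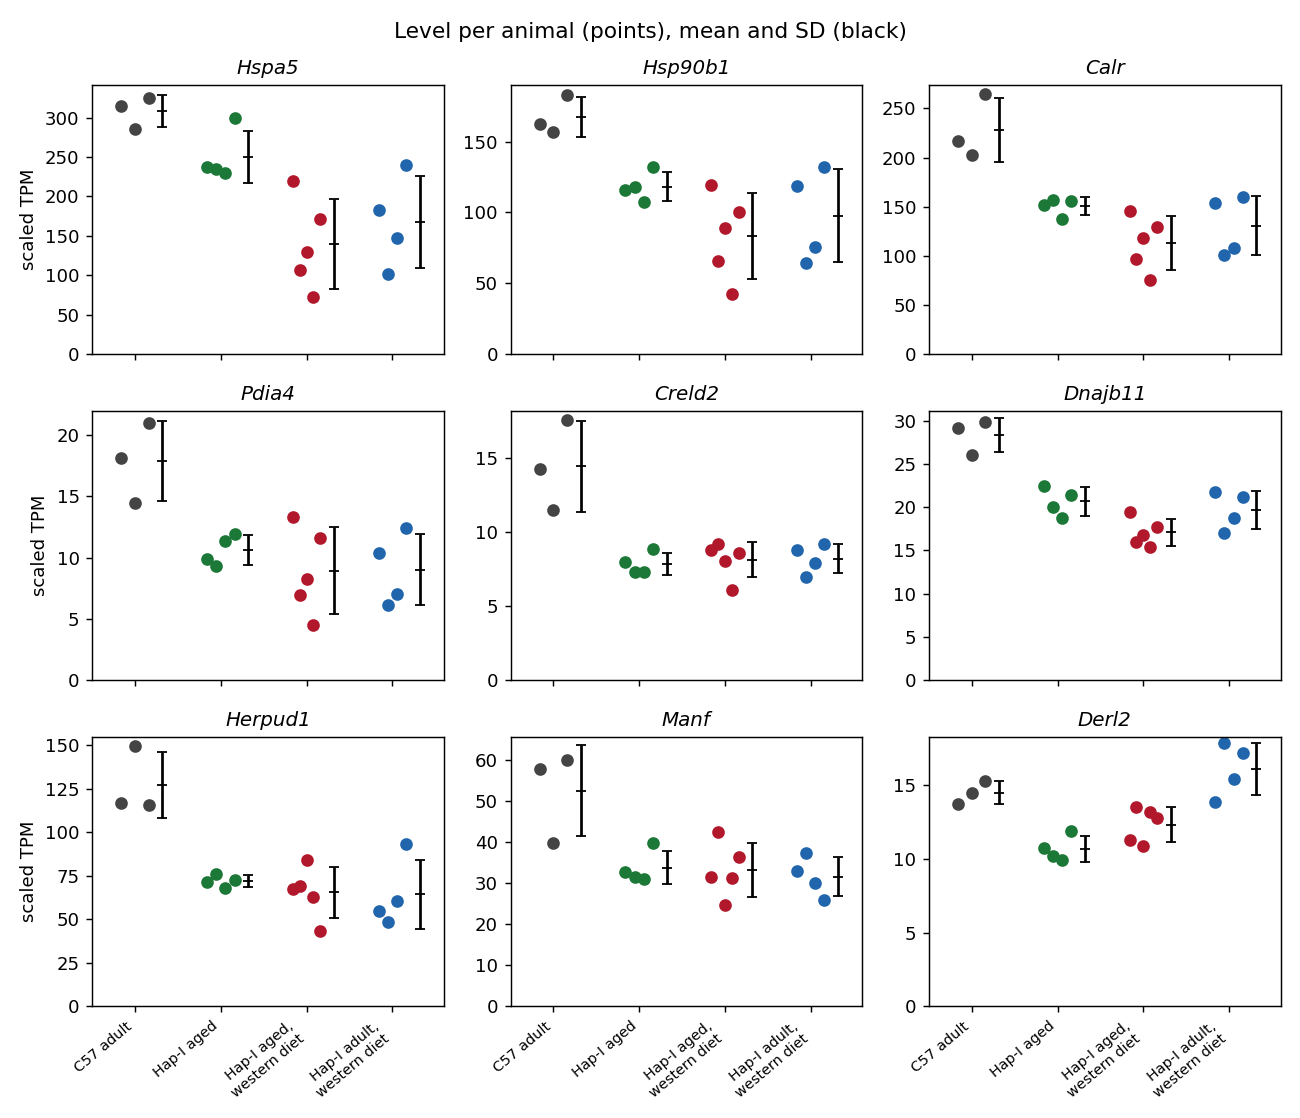
Scaled TPM (y axis, from 0) per animal in the 4 groups for 9 members, with the mean and SD beside the points. Creld2, Dnajb11 and Herpud1 lie below all 3 C57 animals in every Hap-I animal, Hspa5 and Hsp90b1 spread widely in the western-diet groups, and Derl2 is lowest in aged Hap-I.

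Among the 5 disulfide isomerases, which form and rearrange disulfide bonds in folding chains, 4 fell in aged Hap-I on western diet and 0 passed in the other 2 comparisons with C57. Pdia4 (ERp72) was at 18.1, 14.5 and 20.97 in C57 and at 13.3, 6.91, 8.27, 4.54 and 11.6 in aged Hap-I on western diet, a change of -0.99 ± 0.26 (adjusted p = 0.0155). Pdia3 (ERp57), which works with the lectin chaperones, was at 71.2, 61.5 and 79.1 in C57 and at 55.5, 34.4, 40.9, 24.96 and 45.3 in the aged western-diet group, a change of -0.84 ± 0.21 (adjusted p = 0.011). For both, replicate 4 of the aged western-diet group was lowest, replicate 1 highest, and no animal reached C57. P4hb, the archetypal isomerase, was at 83.4, 74.05 and 88.4 in C57 and at 69.5, 47.5, 54.7, 44.8 and 61.7 in the aged western-diet group (-0.56 ± 0.13, adjusted p = 0.00873). The P4hb call held without any 1 library but was lost in 4 of 14 other settings, the atrial covariate among them. Pdia5 was at 2.68, 2.26 and 3.83 in C57 and at 1.96, 1.82, 1.78, 1.5 and 2.15 in that group (-0.45 ± 0.13, adjusted p = 0.0235), and the call was lost after the length correction (adjusted p = 0.111). Without C57 replicate 3 the calls of Pdia3, Pdia4 and Pdia5 were lost, and without replicate 1 those of Pdia4 and Pdia5. Pdia6 had the widest spread of the set, 0.213 to 8.08 scaled TPM within the C57 group alone, and passed nowhere.

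Of the 2 lectin chaperones, which hold glycoproteins through their sugar chains, Calr passed in 2 comparisons with C57. Calr (chr8:84841850-84846934), the soluble calreticulin of the lumen, was at 216, 202 and 264 in C57, 152, 157, 137 and 155 in aged Hap-I, 145, 96.3, 118, 75.1 and 129 in aged Hap-I on western diet and 154, 101, 108 and 159.9 in adult Hap-I. All 13 Hap-I animals lay below the C57 range. It fell by 1.03 ± 0.20 on the log2 scale in aged Hap-I on western diet (adjusted p = 0.00256), a 2.05-fold lower level. This call held in each of 14 other settings and without any 1 of the 16 libraries. It was also called in adult Hap-I (-0.81 ± 0.20, adjusted p = 0.0405), where the call was lost without any 1 of 9 libraries and in 9 of 14 other settings. In aged Hap-I the change was -0.59 ± 0.20 (adjusted p = 0.0753). Canx, the membrane-bound calnexin, had log2 fold changes against C57 from -0.30 to 0.22 and passed nowhere.

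In translocation and ER-associated degradation the calls lay in 2 of 7 members tested. Herpud1 (chr8:94386438-94395377), a membrane protein that gathers the degradation complex, was at 117, 149 and 116 in C57 and at 71.4, 76.2, 67.8 and 72.6 in aged Hap-I. It was at 67.7, 68.9, 84.2, 63.02 and 43.2 in aged Hap-I on western diet and at 55, 48.5, 60.6 and 93.2 in adult Hap-I. Unlike Manf and Sdf2l1, it was highest in C57 replicate 2, the animal with low atrial markers, and no Hap-I animal reached C57. The changes were -0.80 ± 0.21, -0.97 ± 0.20 and -1.01 ± 0.21 (adjusted p = 0.0243, 0.00421 and 0.0184). The call in aged Hap-I was lost without any 1 of 6 libraries and after the length correction (adjusted p = 0.0643), and that in adult Hap-I without any 1 of 4 libraries and with the Y-linked covariate (adjusted p = 0.0523) or the atrial one. Derl2 (chr11:71007164-71019841), a derlin of the channel that returns proteins to the cytosol, had its own order of groups. It was at 13.7, 14.5 and 15.2 in C57 and at 13.9, 17.8, 15.4 and 17.1 in adult Hap-I on western diet, with overlap. In aged Hap-I it was at 10.7, 10.2, 9.94 and 11.9 and in aged Hap-I on western diet at 11.3, 13.5, 10.8, 13.2 and 12.7, both below all C57 animals. Only aged Hap-I was called against C57 (-0.41 ± 0.10, adjusted p = 0.0198), a call lost without any 1 of 3 libraries (C57 replicates 1 and 3, aged replicate 3), and for aged Hap-I on western diet the change was -0.22 ± 0.10 (adjusted p = 0.116). Sel1l, Syvn1, Edem1, Derl1 and Sec61b, the ligase complex, a mannose-binding factor, another derlin and a translocon subunit, passed nowhere. Sec61b and Derl1 share 23.5% and 8.6% of their words with other genes, so their levels are less certain.

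Among the 9 sensors, transcription factors and feedback genes few passed. Xbp1, whose gene-level value cannot tell the spliced from the unspliced form, was at 36.5, 28.2 and 33.5 in C57 and at 23.4, 24.3, 23.3 and 24.7 in aged Hap-I, with no overlap (-0.43 ± 0.12, adjusted p = 0.0337). This call was lost without any 1 of 6 libraries (C57 replicates 1 and 3 and each aged Hap-I animal). In aged Hap-I on western diet it was at 23.9, 32.8, 24.8, 25.7 and 24.6 and in adult Hap-I at 26.8, 30.9, 25.6 and 22.7 (adjusted p = 0.0719 and 0.183). Chac1, which degrades glutathione and is a target of ATF4, was at 1.62, 3.44 and 4.41 in C57 and at 1.13, 1.04, 0.65 and 1.06 in aged Hap-I, a change of -1.02 ± 0.27 (adjusted p = 0.024), lost without any 1 of 4 libraries (C57 replicates 2 and 3, aged replicates 3 and 4). In aged Hap-I on western diet it was at 1.69, 1.64, 2.95, 2.28 and 0.732 and in adult Hap-I at 1.3, 1.97, 0.997 and 2.15. Both ranges overlapped C57, whose 3 animals differed 2.73-fold. Ddit3 (CHOP) was at 32.6, 21.6 and 31.8 in C57, 22.4, 22.6, 18.9 and 21.3 in aged Hap-I, 15.5, 27.1, 18.1, 18.4 and 23.4 in aged Hap-I on western diet and 15.3, 19.9, 18.8 and 16.1 in adult Hap-I. It was called in adult Hap-I (-0.67 ± 0.17, adjusted p = 0.0474), and that call was lost without any 1 of 11 libraries. Of the words of Ddit3 6.78% are shared with other gene IDs, led by a second ID that the gene name table lists under the same symbol.

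Atf4, the factor made when PERK is active, was at 43.6, 35.6 and 48.8 in C57, 38.1, 38.8, 34.5 and 34.2 in aged Hap-I, 29.5, 44.7, 33.4, 32.7 and 37.99 in aged Hap-I on western diet and 32.6, 37.05, 34.5 and 36.2 in adult Hap-I. The ranges of all 4 groups overlapped, and the fold changes against C57 lay between -0.26 and -0.21 (adjusted p = 0.152 to 0.301). Atf6 was at 11.7, 14.4 and 11.03 in C57 and at 16.6, 13.9, 16.3 and 16.7 in aged Hap-I (0.34 ± 0.19, adjusted p = 0.264). It was at 16.4, 11.4, 15.6, 10.49 and 10.9 in aged Hap-I on western diet and at 9.59, 8.6, 9.86 and 16.7 in adult Hap-I, where replicate 4 stood apart from the other 3. ATF4 is set by translation and ATF6 by cleavage, neither of which these transcript levels measure.

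**Figure D3:**
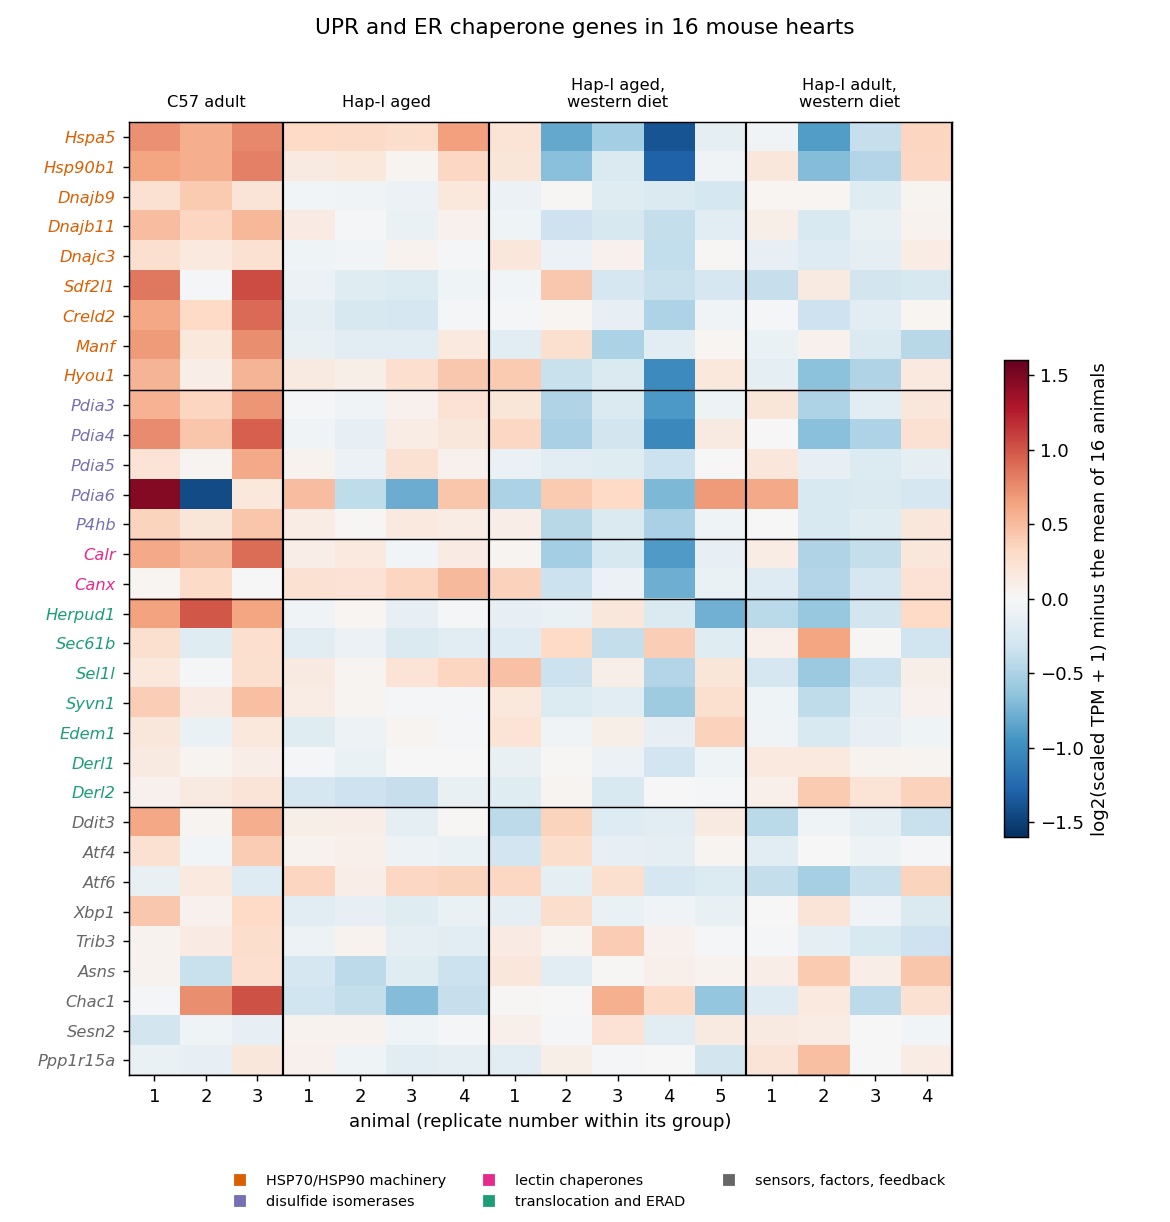
Each cell shows log2(scaled TPM + 1) of a member (rows, coloured by role) in an animal (columns) minus its mean over the 16 animals. The C57 columns are above the mean for most chaperones, replicate 4 of aged Hap-I on western diet and replicate 2 of adult Hap-I on western diet are low in most chaperone rows. Among the sensors and factors at the bottom, Xbp1 and Ddit3 are also above their mean in all 3 C57 columns.

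Among Hap-I hearts few differences passed. The western diet in aged Hap-I mice, the comparison named in the series title, gave 0 calls among the members in either direction by limma, against 0.0876% of all genes lower and 0.0788% higher, with 7 of 32 members at an unadjusted p under 0.05, against 1817 of 11415 genes. Hspa5 had the lowest adjusted p: its mean was 140.0 ± 57.4 (SD, n = 5) with the diet and 250.5 ± 33.1 (SD, n = 4) without, a change of -0.93 ± 0.27 (adjusted p = 0.133), and the animals did not overlap. Hspa5 was 1 of 2 members without overlap, against 7.14% of all genes. In the same comparison the log2 fold change of Dnajb11 was -0.26 ± 0.09, that of Calr -0.45 ± 0.18 and that of Hsp90b1 -0.58 ± 0.26 (adjusted p = 0.189, 0.245 and 0.288), and those of Creld2 and Manf were 0.04 ± 0.13 and -0.04 ± 0.15. The median over members was -0.075, against 0.003 over all genes.

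Age was compared within the western diet, aged against adult Hap-I, and 1 member fell, against 0.718% of all genes lower and 1.67% higher. This was Derl2 (-0.36 ± 0.09, adjusted p = 0.0481), whose 5 aged animals all lay below the 4 adult ones. The call was lost without any 1 of 13 of the 16 libraries, with adjusted p of up to 0.113, and in 11 of 14 other settings. In all 2 members did not overlap, against 6.31% of genes. Aged Hap-I without the diet against adult Hap-I on western diet, where age and diet differ together, gave 2 members lower, against 0.885% of genes, and 0 higher, against 1.25%. Derl2 fell by 0.54 ± 0.09 (adjusted p = 0.0118), and this held without any 1 library. Asns, the asparagine synthetase induced by ATF4, was the other, and it was chosen for its values after they were seen. It was at 0.943, 0.749, 1.06 and 0.856 in aged Hap-I and at 1.53, 2.14, 1.52 and 2.2 in adult Hap-I (-0.58 ± 0.13, adjusted p = 0.0352), and the call was lost after the length correction (adjusted p = 0.0979) and without any 1 of 7 libraries. Members without overlap numbered 4, against 16.0% of genes.

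Hspa5 and its close partners were among the members that varied most between animals of 1 group. The median within-group SD was 0.237 on the log2 scale over members and 0.186 over all genes, and 19 of 32 members lay above the latter. Hspa5 had an SD of 0.452, higher than 95% of genes. Hsp90b1 had 0.425 and Pdia4 0.40, whereas Dnajb11 had 0.125 and Dnajb9 0.116. The spread of Hspa5 was not even across groups: its highest animal was 1.14-fold above its lowest in C57, 1.30-fold in aged Hap-I, 3.06-fold in aged Hap-I on western diet and 2.37-fold in adult Hap-I on western diet. In the aged western-diet group Hspa5 was lowest in replicate 4, at 71.8, and in the adult group in replicate 2, at 101.

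Many of the chaperones followed Hspa5 from animal to animal. Group means were removed and each gene's deviations were correlated with those of Hspa5 over 16 animals, with 100000 permutations within groups. At r of at least 0.7 there were 12 of the 31 other members, against 10.8% of all genes. By the permutation test adjusted over all 11414 genes, 12 members passed for Pearson's r, against 5.78% of genes, with r from 0.691 to 0.965 and adjusted p of 0.0421 to 0.0472. Spearman's rho for these ran from 0.644 to 0.956, and none passed, with adjusted p of 0.0571 or more. The 12 were Hsp90b1 (r = 0.965, rho = 0.956, p = 2e-05 and 3e-05), Pdia3 (r = 0.961), Pdia4 (r = 0.955), Calr (r = 0.923), P4hb (r = 0.92), Dnajb11 (r = 0.821), Creld2 (r = 0.691), Hyou1, Sel1l, Canx, Syvn1 and Dnajc3. Leaving out the 2 animals farthest from the median (aged Hap-I on western diet replicates 1 and 4) gave r from 0.566 to 0.936 over these members and Edem1.

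The other members were spread from negative to positive r and did not pass. Sec61b had r = -0.726 (permutation p = 0.0232, adjusted over all genes 0.1), Atf6 0.635 (p = 0.0618) and Ppp1r15a -0.539 (p = 0.0778), and Sec61b and Ppp1r15a are named here for their values after these were seen. Xbp1 had r = -0.474, Ddit3 -0.273, Atf4 -0.191 and Manf -0.133, and Herpud1 and Dnajb9 had 0.208 and 0.14 (permutation p = 0.165 or more, 31 correlations computed). Of the 31, 10 were negative. Asns, taken as a second anchor for the targets of ATF4, had 0 of 31 members at r of 0.7, against 0.508% of genes.

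**Figure D4:**
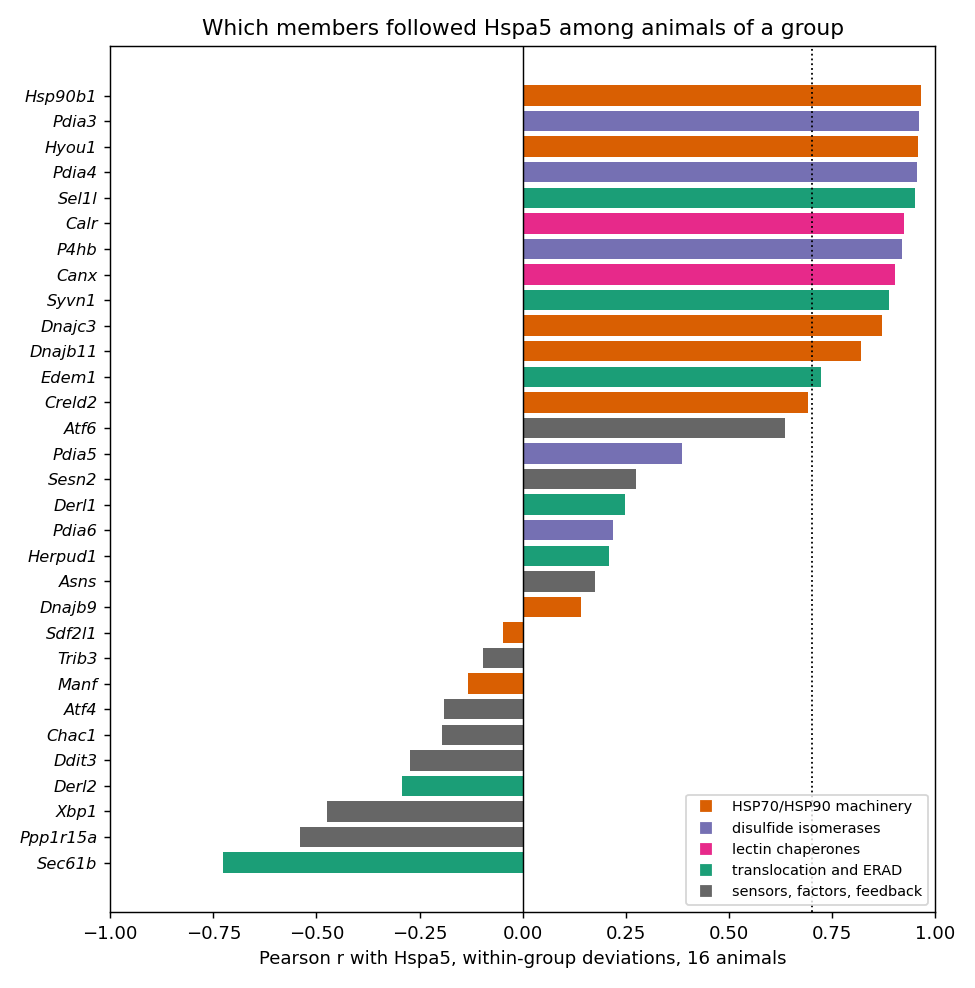
Pearson's r (x axis) of each other member's within-group deviations with those of Hspa5 over 16 animals, with bars coloured by role and a dotted line at 0.7. Chaperones, isomerases and the degradation ligase fill the upper end up to 0.965 (Hsp90b1), and Sec61b is at the lower end (-0.726). Among the transcription factors Atf6 is at 0.635, and Atf4, Ddit3 and Xbp1 are below 0.

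The deviations of Hspa5, and not those of the other members, were tested against 4 properties of the libraries. Hspa5 and the 13 members counted with it by p adjusted over the 31 correlations were all lowest in replicate 4 of their aged western-diet group and in replicate 2 of the adult group, the libraries with the lowest size factors (0.775 and 0.678). The 13 were chosen for following Hspa5, so sharing its lowest animals was largely set by that choice. Of all 32 tested members, 20 were lowest in the first of these libraries within its group and 16 in the second. Without these libraries 11 members stood at r of 0.7 or more, against 6.66% of genes, and Creld2 had 0.357. By Pearson's r the deviations of Hspa5 followed how far a library's levels leaned to long or short transcripts (rank correlations of -0.405 to 0.468 across the 16). For this r was 0.81 (permutation p = 0.00493, adjusted over 4 library measures 0.0197) and rho 0.718 (adjusted p = 0.075), and r was 0.686 without the 2 libraries farthest from the median. For the size factor r was 0.734 (adjusted p = 0.0572), for the mitochondrial share -0.35 and for atrial markers 0.0943. After each library's length trend was removed, the 13 members had r from 0.482 to 0.97, and 11 of them were still counted. Among the 11 libraries with Y-linked transcripts only 3 members were counted.

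**Figure D5:**
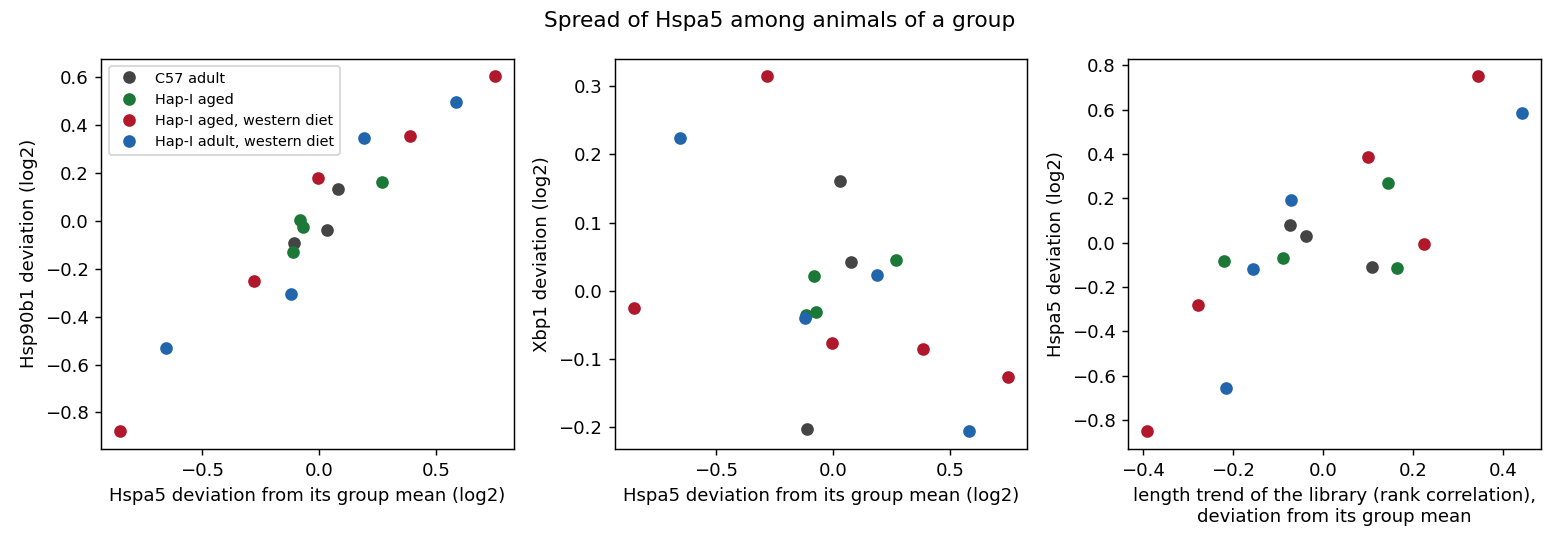
Left and middle: deviations of Hsp90b1 and of Xbp1 from their group means (y axes, log2) against those of Hspa5 (x axes), 1 point per animal, coloured by group. Right: deviation of Hspa5 against the length trend of the library, as a deviation from its group mean; Hsp90b1 follows Hspa5 closely (r = 0.965), Xbp1 does not (r = -0.474), and Hspa5 rises with the length trend (r = 0.81).

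The members that hold the ER stress response element in either form were 11, and 10 of them were tested. Of these 10, 6 fell in aged Hap-I on western diet against C57, and of the 18 other tested members with a window 6 fell. In aged Hap-I 3 of the 10 and 4 of the 18 fell, and in adult Hap-I 4 of the 10 and 1 of the 18. Of all genes 9.57%, 4.06% and 1.5% were called lower in these comparisons. Of the 9 besides Hspa5, 7 were among the 13 members counted with it. Of the 18 others, Pdia3, Pdia4, P4hb, Sel1l and Edem1 were also counted, and Hyou1, the last of the 13, had no window. Whether the element goes with this following was not tested.

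Other genes of the pathway were taken from 4 further lists, whose counts stand beside the shares of all genes called: 4.06% lower and 7.18% higher in aged Hap-I, 9.57% and 12.3% in aged Hap-I on western diet, and 1.5% and 1.95% in adult Hap-I. Unlike those of the members, calls in these lists were not recomputed without single libraries or in other settings. Of 58 tested genes for ER folding and translocation, 19 fell and 1 rose in aged Hap-I on western diet, with a median of -0.27. The leading ones were Cnpy2 (17.2 ± 2.31 against 32.5 ± 1.18, SD, adjusted p = 0.00023), Sec62, a subunit of the translocon, and Sdf2, the paralog of Sdf2l1. In aged Hap-I 10 fell and 1 rose, led by Sec62, Rcn1 and Sdf2, and in adult Hap-I 4 fell and 0 rose, led by Sec62, Rcn1 and Sdf2. Among 24 other degradation genes, 1 fell in aged Hap-I, 3 in aged Hap-I on western diet and 1 in adult Hap-I, and 0 rose, so the counts in both aged groups were near the shares of all genes. Selenos, a selenoprotein of the degradation complex, was among those that fell in each comparison. Selenos was at 29.2 ± 1.14 in C57 hearts and at 19.9 ± 1.35, 16.7 ± 3.09 and 18.4 ± 2.08 in aged Hap-I, aged Hap-I on western diet and adult Hap-I (adjusted p = 0.0163, 0.000676 and 0.0134).

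Of 22 sensors and their processing factors, 2 rose and 1 fell in aged Hap-I, 1 rose and 2 fell in aged Hap-I on western diet, and 1 rose in adult Hap-I. The counts in aged Hap-I were near the shares of all genes (7.18% higher and 4.06% lower). So were the 2 that fell in aged Hap-I on western diet (9.57% lower). Ern1, which encodes the sensor IRE1, rose in aged Hap-I from 1.15 ± 0.174 to 1.79 ± 0.178 (SD, log2 fold change 0.38 ± 0.11, adjusted p = 0.0407). Eif2s1, the subunit that PERK phosphorylates, fell there (-0.27 ± 0.08, adjusted p = 0.0403) and in aged Hap-I on western diet (-0.30 ± 0.08, adjusted p = 0.0139). Of 41 targets of ATF4 and CHOP, 4 fell in aged Hap-I, led by Cebpb, a partner of CHOP (2.42 ± 0.289 against 7.39 ± 0.537, adjusted p = 0.00379). In aged Hap-I on western diet 6 fell, led by Mars, a transfer RNA ligase, and Sqstm1, an autophagy receptor. There 1 rose, against 12.3% of all genes called higher. This was Gdf15, a stress cytokine, from 0.251 ± 0.142 to 0.861 ± 0.272 (SD, limma adjusted p = 0.00771). Both means lay under 1 scaled TPM, and Gdf15 entered the tests through Hap-I libraries alone. In adult Hap-I 0 of the 41 targets were called against C57. Among Hap-I groups the 4 lists gave 0 calls for the diet. In aged against adult Hap-I on western diet 2 of the 58 folding and translocation genes fell, against 0.718% of all genes. In aged Hap-I against adult Hap-I on western diet 1 of these 58 rose, against 1.25%. There 1 of the 41 targets fell, against 0.885%.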

How the data were processed

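The deposited table holds TPM per gene and library, which the authors made with kallisto on GRCm38, per the submitters' processing notes; versions are not given in the sources used here. TPM keep no sequencing depth, so depth is unknown and no counting error could be given. Animals are separate per the series design, and groups follow the sample labels. All 16 columns were used (0 left out). TPM were divided by median-ratio size factors, the 11415 genes that reached 1 TPM in 3 or more libraries were kept, and log2(value + 1) was tested with limma 3.58.1 in R 4.3.3 (1 fit over the 4 groups, variance trend, Benjamini-Hochberg, 0.05). Scripts were tested on simulated data.

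Correlations used deviations from group means and 100000 permutations within groups. Promoter letters came from the RefSeq table (GRCm38.p6), and shared sequence was the share of 31-base words of a gene's transcripts found in another gene. Members called in any comparison (at most 16, by smallest adjusted p) and Hspa5, Atf4, Atf6, Xbp1 and Ddit3 were given per animal, and up to 3 called genes per further list were named. Members and lists were chosen with earlier results of these data known. Alternatives covered the scaling, pseudocount, filter, transcript length, variance trend, Y-linked and atrial covariates, fits of 2 groups alone and each library left out.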

Additional observations from a re-analysis of the deposited data

Results flagged for a closer look

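Among 96 sets of values (a member in a group of 4 or 5 animals) 6 held 1 animal far from the rest, where chance gives about 1 in 20, or 4.8. Hspa5 was at 300.0 scaled TPM in aged Hap-I replicate 4, against 229.9 to 237 in the other animals of the group. Atf6 was at 13.93 in aged Hap-I replicate 2, against 16.34 to 16.72. In adult Hap-I on western diet Atf6 was at 16.71 in replicate 4, against 8.596 to 9.855. Xbp1 was at 32.8 in replicate 2 of aged Hap-I on western diet, against 23.89 to 25.7. Dnajb9 was at 9.044 in replicate 3 of adult Hap-I on western diet, against 10.75 to 10.78. Pdia6 was at 3.997 in replicate 1 of the same group, against 1.731 to 1.788.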

How the results depend on the processing

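Of 894 recomputed single-gene results, all for members, 684 kept direction and call, 210 lost the call and 0 reversed. Of 30 calls, 9 held without any 1 library. The diet comparison kept 0 calls throughout. With no scaling the counts were 0 (aged against adult Hap-I, both on western diet), 0 (aged Hap-I against adult Hap-I on western diet), 0 (aged Hap-I against C57), 2 (adult Hap-I on western diet against C57) and 2 (aged Hap-I on western diet against C57). The first comparison, with 1 call, also gave 0 with a pseudocount of 0.1, no filter, a filter at 5 TPM, both of these changes together, no variance trend, either covariate, the length correction with the Y-linked covariate, the 2 groups alone, and without the 2 libraries of lowest size factor. The second gave 1 with no filter, the filter at 5 TPM (alone or with the pseudocount of 0.1), the length correction, the Y-linked covariate, both of the latter, and without those 2 libraries. Aged Hap-I against C57 gave 5 with quantile normalization, 3 with no filter, 5 with the atrial covariate and 14 with the 2 groups alone. Of all genes 3.02%, 1.48%, 2.21% and 10% were then called lower. Adult Hap-I against C57 gave 3 with no filter, 2 with the Y-linked covariate, 0 with the atrial covariate, 0 with the 2 groups alone and 2 without those 2 libraries. The shares of all genes called lower were 0.573%, 0.517%, 0.359%, 0.289% and 0.956%. Aged Hap-I on western diet against C57 gave 5 with the atrial covariate and 9 with the 2 groups alone, against 2.27% and 4.95% of all genes lower. Leaving out single libraries gave 0 to 1, 1 to 3, 1 to 9, 0 to 7 and 7 to 17 in that order. The members counted with Hspa5 were 13, and 23 with no scaling and 3 in the libraries with Y-linked transcripts. With Asns they were 0, and 19 with no scaling. The causes were not tested. Leaving out the 2 libraries, and both joint settings, were chosen after seeing the data. No paired analysis was possible because the replicate numbers only name animals, which are different in every group. Depth is unknown, so a difference that did not pass may lie under what these libraries resolve.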
